A study of Mus musculus with 6 samples.

Results

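The complement genes described here are C1qa, C1qb, C1qc, C3, Cfb, Cfp, C3ar1 and C5ar1, 8 of the 57180 genes in the deposited count table, taken by their symbols. They were measured in osteoclast precursors (OCPs), macrophages grown from mouse bone marrow and primed with the osteoclast cytokine RANKL. WT OCPs (3 libraries) were compared with lincRNA-EPS-/- (KO) OCPs (3 libraries), which lack the long intergenic noncoding RNA lincRNA-EPS. Cells of both genotypes were kept in M-CSF, a growth factor of macrophages, at 40 ng/ml, alone for 24 h, and then had RANKL at 40 ng/ml for a further 48 h, with no LPS before the RNA was taken. WT and KO mice were C57BL/6, and the age of the marrow donors is not given in the sources used here. The deletion is carried by every cell of the KO cultures, and the study's methods call each data point a biological replicate, from 1 mouse or 1 independent culture. The labels number the libraries within a genotype without saying which of these they are, so the p-values cover the spread between these libraries and may not cover that between mice.

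Complement is a chain of secreted proteins that marks particles for uptake, lyses membranes and releases the small peptides C3a and C5a. It is started by the recognition molecule C1q (classical pathway), by lectins, or by the alternative pathway, and all routes meet at C3. Although most complement proteins in blood are made by the liver, macrophages are the main source of C1q, and they carry receptors for C3a and C5a, which also act on cells of the osteoclast lineage.

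The libraries held 17757351 to 19998611 counts. LincRNA-EPS, listed as Ttc39aos1, had 20, 37 and 41 counts in the WT libraries and 0 in each KO library, as the labels say. All 8 macrophage markers (Adgre1, Csf1r, Cd68, Mertk, Fcgr1, Cd14, Lyz2 and Mrc1) were detected in every library, with a summed level of 15751 to 16956 CPM (counts scaled to the size of the library) in WT and 14253 to 17102 CPM in KO. Lyz2 made up most of that sum, at 12527 to 13973 CPM in WT and 11503 to 14417 CPM in KO. The fold change between genotypes ran with the GC content of the transcript, with r = -0.51 across 13176 genes, which are not independent replicates. Within each genotype 1 pair of libraries was examined, with r = 0.579 for KO replicate 1 minus 3 and r = -0.487 for WT replicate 1 minus 2. The other pairs within a genotype were not examined. Values are therefore given as counted, and fold changes of the 8 complement genes again after a GC correction.

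All 8 complement genes had a lower estimate in KO than in WT OCPs, as had 6580 of the 13428 genes tested. None of the 8 passed the limits, a fold change above 1.3 with an adjusted p-value under 0.01, in edgeR's quasi-likelihood test. The median log2 fold change of the 8 genes was -0.26, against 0.01 over the 13428 genes tested, of which 0.00745% passed the limits. C1qb, C1qc, Cfp and C5ar1 had an unadjusted p under 0.05 toward lower levels in KO, where 13.2% of all genes tested did so. In the same 4 genes every KO library lay below every WT library, which held for 18.8% of all genes tested. DESeq2 and limma-voom also put 0 of the 8 genes past the limits. In DESeq2 only C1qc had an adjusted p under 0.05, as had 839 of the 24756 genes in that fit. Some of those genes, Cfb among them, were given no adjusted p. After the GC correction 7 of the 8 genes had a lower estimate, as had 6829 of all genes tested, and C1qa had a higher one. The median of the 8 genes was then -0.13, against -0.01 over all genes. Of the 8, 2 genes, C3ar1 and C5ar1, had an unadjusted p under 0.05 in edgeR, where 13.8% of all genes were lower at that p. In a bulk sample, fewer cells of a type and less RNA per cell cannot be told apart.

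**Figure D1:**
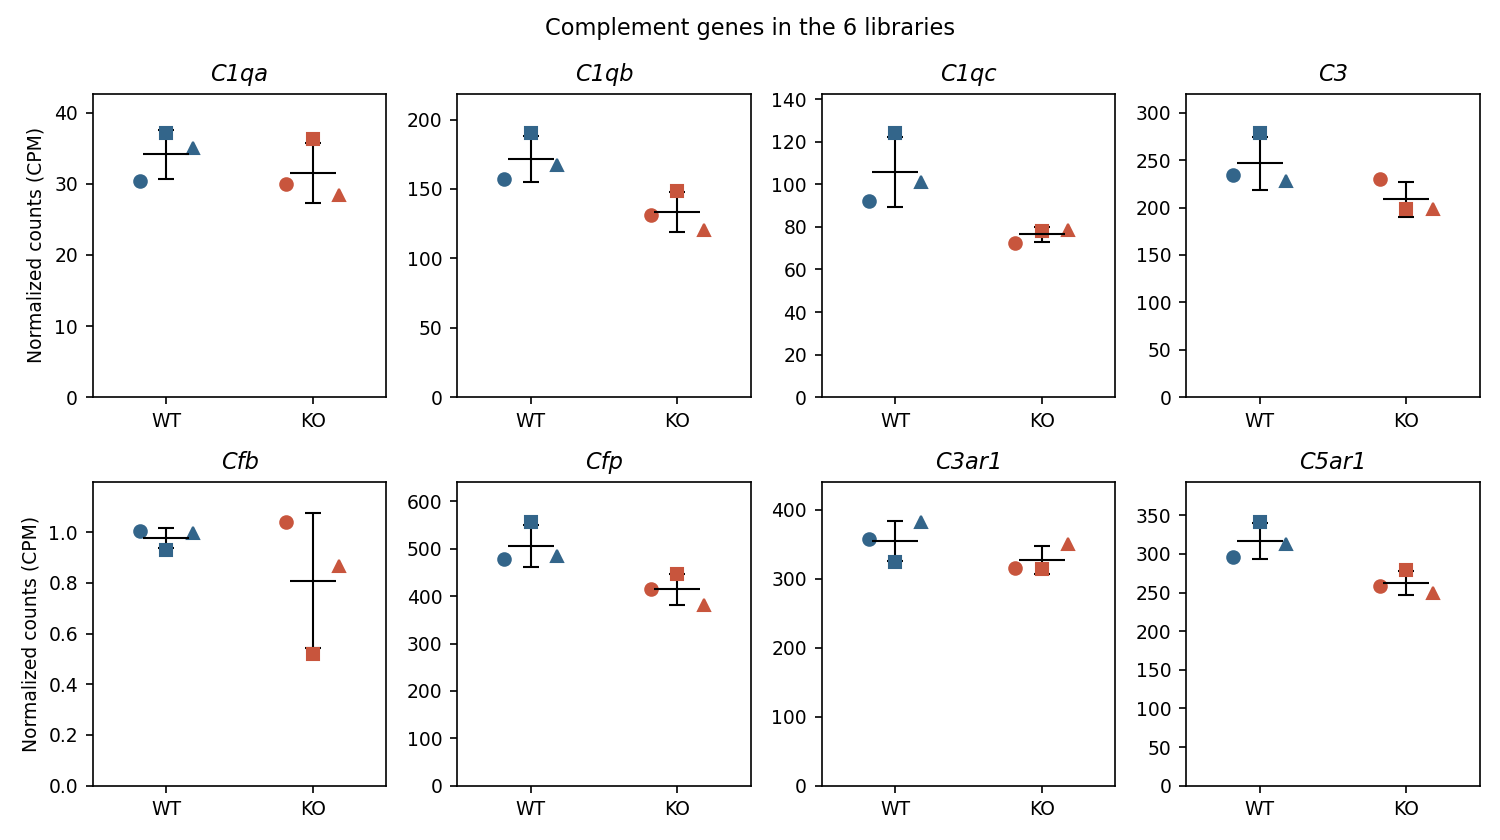
Normalized counts (CPM, from 0) of the 8 complement genes in the WT and KO libraries, with circles, squares and triangles for replicates 1, 2 and 3 and bars for the mean and SD (n = 3). The KO libraries lie below all WT libraries in C1qb, C1qc, Cfp and C5ar1, and the genotypes overlap in C1qa, C3, Cfb and C3ar1.

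C1q is built from A, B and C chains in equal number, encoded by C1qa, C1qb and C1qc, and its collagen-like stem carries globular heads that bind antibody, dying cells and microbes. The 3 genes lie side by side on the minus strand of chromosome 4 in the GRCm38 annotation and span 18675 bases. C1qb (ENSMUSG00000036905) runs from 136880129 to 136886187, C1qc (ENSMUSG00000036896) from 136889804 to 136893065, and C1qa (ENSMUSG00000036887) from 136895917 to 136898803. Ttc39aos1 is on the same chromosome, 27.474 Mb away from this cluster.

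C1qb was at 157, 190.3 and 167 CPM in the WT libraries and at 131, 149 and 121 CPM in the KO libraries. Each KO library was lower than each WT library, with means of 172 ± 16.9 and 134 ± 14.2 CPM (SD, n = 3). The log2 fold change was -0.36 (SE 0.11, 95% interval -0.62 to -0.10), with an adjusted p = 0.147 in edgeR and 0.0531 in DESeq2, so C1qb did not pass the limits.

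C1qc was at 92.1, 124 and 101 CPM in WT and at 72.6, 78.0 and 78.7 CPM in KO. The KO libraries sat close together and below all 3 WT libraries, among which WT replicate 2 was the highest, with means of 106 ± 16.5 and 76.4 ± 3.34 CPM (SD, n = 3). C1qc had the most negative estimate of the 8 genes, a log2 fold change of -0.47 (SE 0.12, 95% interval -0.74 to -0.19) with an adjusted p = 0.147 in edgeR and 0.0222 in DESeq2. Leaving out 1 library at a time moved it from -0.56 to -0.34.

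C1qa was at 30.3, 37.1 and 35.0 CPM in WT and at 29.9, 36.3 and 28.4 CPM in KO. The genotypes overlapped, unlike those of C1qb and C1qc, and the fold changes of the chains were not tested against each other. The means were 34.1 ± 3.46 and 31.5 ± 4.19 CPM (SD, n = 3), with a log2 fold change of -0.11 (SE 0.13, 95% interval -0.41 to 0.18) and an adjusted p = 0.584 in edgeR. With 1 library left out at a time it went from -0.23 (without KO replicate 2) to -0.04 (without KO replicate 3), and it was -0.19 without WT replicate 1, -0.05 without WT replicate 2 and -0.08 without KO replicate 1.

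Because the chains are measured in the same library, their ratio does not depend on the scaling between libraries. The ratio of C1qb to C1qa counts was 5.18, 5.13 and 4.79 in WT and 4.38, 4.10 and 4.25 in KO. That of C1qc to C1qa was 3.03, 3.34 and 2.89 in WT and 2.42, 2.15 and 2.77 in KO. In both, each KO library lay below each WT library, a log2 difference of -0.25 for C1qb over C1qa and of -0.34 for C1qc over C1qa. The ratio of C1qb to C1qc overlapped between the genotypes, at 1.53 to 1.71 in WT and 1.53 to 1.91 in KO. No p is given for the ratios, as the smallest that an exact permutation of 3 WT and 3 KO libraries allows is 0.1. The 3 chains together came to 279.7, 351 and 303 CPM in WT and to 234, 263 and 228 CPM in KO, also without overlap as counted.

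**Figure D2:**
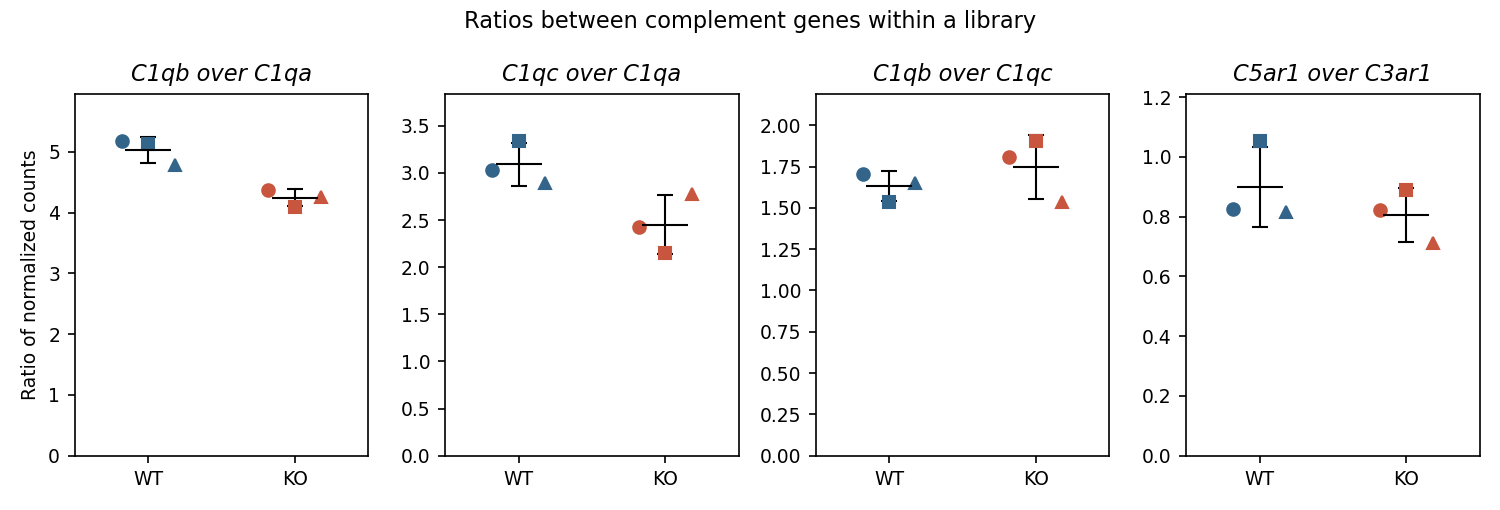
Ratio of normalized counts (from 0) of C1qb to C1qa, C1qc to C1qa, C1qb to C1qc and C5ar1 to C3ar1 in the WT and KO libraries, with circles, squares and triangles for replicates 1, 2 and 3 and bars for the mean and SD (n = 3). Both ratios to C1qa are lower in every KO library than in any WT library, and the other ratios overlap.

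The GC correction moved all 3 chains, whose transcripts have 57.4% to 59.5% GC, up in KO. C1qb then stood at 151, 158 and 159 CPM in WT and 129, 152 and 158 CPM in KO, with a log2 fold change of -0.09 (SE 0.08). C1qc stood at 88.3, 103 and 96.0 CPM in WT and 71.3, 79.6 and 104 CPM in KO, with a log2 fold change of -0.17 (SE 0.13). In both genes the genotypes overlapped after the correction, and KO replicate 3 was the highest KO library. C1qa turned to a higher estimate in KO, with a log2 fold change of 0.25 (SE 0.12) and an adjusted p = 0.233 in edgeR. The 2 ratios to C1qa kept their direction and did not overlap after the correction, with log2 differences of -0.34 for C1qb over C1qa and -0.43 for C1qc over C1qa. The sum of the 3 chains overlapped after the correction, at 268, 291 and 288 CPM in WT and 229, 268 and 303 CPM in KO.

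The bases upstream of the C1qb, C1qc and Cfp starts are shown because these genes had non-overlapping libraries as counted. C5ar1 had them too and is not shown, since all but 48 bases of its window lie within its annotated transcripts. They are RefSeq sequences of GRCm38.p6, read 5′ to 3′ along the gene's minus strand, and end at the RefSeq start for C1qb (chr4:136886201-136886450) and Cfp (chrX:20931556-20931805). For C1qc only the 99 bases that lie outside its annotated transcripts are shown (chr4:136893066-136893164). Capitals mark a PU box (GAGGAA), the core bound by the macrophage factor PU.1, on either strand.
C1qb: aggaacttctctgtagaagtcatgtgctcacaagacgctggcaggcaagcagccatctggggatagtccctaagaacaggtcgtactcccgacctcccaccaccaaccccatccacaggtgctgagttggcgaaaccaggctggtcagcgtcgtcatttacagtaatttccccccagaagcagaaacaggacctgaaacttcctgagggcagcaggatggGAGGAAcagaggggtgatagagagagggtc
C1qc: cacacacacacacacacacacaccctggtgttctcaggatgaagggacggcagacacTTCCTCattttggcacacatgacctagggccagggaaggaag
Cfp: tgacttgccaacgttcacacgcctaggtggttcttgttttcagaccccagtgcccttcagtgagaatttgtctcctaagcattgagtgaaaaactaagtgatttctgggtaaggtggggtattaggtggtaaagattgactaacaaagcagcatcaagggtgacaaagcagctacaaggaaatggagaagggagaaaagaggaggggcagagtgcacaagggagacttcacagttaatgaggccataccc

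In the 250 bases upstream of the RefSeq start, C1qb held a PU box that begins 30 bases before that start. C1qc held a PU box 193 bases before its RefSeq start, printed as its reverse complement. That start of C1qc lies within its annotated transcripts, so the printed bases end before it and the box is nearer to the annotated end. C3, Cfp, C3ar1 and C5ar1 held none in theirs. The letters are common, with a PU box in 23.3% of 32851 promoter windows of the same length. The interferon response core GAAANNGAAA, in 2.98% of windows, was in none of the 6 windows, on either strand, and neither motif contains the other. The windows were found for 6 of the 8 genes and not for C1qa and Cfb. A match of letters is a description and was not tested for binding.

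C3 is the protein on which all complement pathways converge. Its gene (ENSMUSG00000024164) lies on the minus strand of chromosome 17, from 57203970 to 57228136. C3 was at 234, 279 and 228 CPM in WT and at 229.9, 198 and 198 CPM in KO. KO replicate 1 lay within the WT range and the other two KO libraries lay below it. Means were 247 ± 27.7 and 209 ± 18.4 CPM (SD, n = 3), and the log2 fold change was -0.24 (SE 0.11, 95% interval -0.50 to 0.01) with an adjusted p = 0.204 in edgeR, and -0.15 without WT replicate 2. After the GC correction it was -0.11 (SE 0.08).

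Cfb and Cfp belong to the alternative pathway: factor B (Cfb) supplies the protease of its C3 convertase, and properdin (Cfp), which is made by myeloid cells, holds that convertase together. Cfp (ENSMUSG00000001128) lies on the minus strand of the X chromosome, from 20925454 to 20931555, and had the most counts of the 8 genes, 7486 to 10182 in a library. Its level was 478, 557 and 485 CPM in WT and 415, 447 and 381 CPM in KO, and each KO library lay below each WT library. Means were 507 ± 44.1 and 415 ± 33.1 CPM (SD, n = 3), with a log2 fold change of -0.29 (SE 0.11, 95% interval -0.53 to -0.05) and an adjusted p = 0.157 in edgeR. After the GC correction the genotypes overlapped, at 463, 476 and 465 CPM in WT and 409, 454 and 480 CPM in KO, and the log2 fold change was -0.06 (SE 0.07).

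Cfb was close to the limit of detection. It had 19.57, 17 and 19.09 estimated counts in WT and 20, 9 and 17 in KO, so its level was 0.977 ± 0.040 CPM in WT and 0.808 ± 0.267 CPM in KO (SD, n = 3). KO replicate 2 was the lowest and KO replicate 1 the highest library. The log2 fold change of -0.26 (SE 0.32, 95% interval -0.99 to 0.47) holds differences of either sign, so none was detectable at this depth. After the GC correction it was -0.15 (SE 0.32), and with 1 library left out at a time the value as counted went from -0.47 (without KO replicate 1) to -0.04 (without KO replicate 2). Cfb (ENSMUSG00000090231; minus strand of chromosome 17, 34856374 to 34862518) overlaps the gene Gm20547 on its own strand, to which up to 2.56 counts were given, so reads may be split between them.

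C3ar1 and C5ar1 are the receptors for the anaphylatoxins C3a and C5a, G protein-coupled receptors of myeloid cells. C5ar1 (ENSMUSG00000049130) lies on the minus strand of chromosome 7, from 16246743 to 16259540. It was at 296, 342 and 312 CPM in WT and at 259, 279.8 and 249 CPM in KO, and the genotypes did not overlap. Means were 317 ± 23.5 and 263 ± 15.6 CPM (SD, n = 3), with a log2 fold change of -0.27 (SE 0.10, 95% interval -0.49 to -0.05) and an adjusted p = 0.156 in edgeR. C5ar1 hardly moved with the GC correction, to -0.27 (SE 0.08) with an adjusted p = 0.0879 in edgeR, and its genotypes still did not overlap. With 49.2% GC its transcript lies near the middle of the range in the plot of GC content against fold change.

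C3ar1 (ENSMUSG00000040552), on the minus strand of chromosome 6 from 122847138 to 122856161, was at 358, 324 and 383 CPM in WT and at 315, 315 and 351 CPM in KO. The genotypes overlapped, since KO replicate 3 was above WT replicate 2. Means were 355 ± 29.3 and 327 ± 20.6 CPM (SD, n = 3), with a log2 fold change of -0.12 (SE 0.10, 95% interval -0.35 to 0.11) and an adjusted p = 0.455 in edgeR, and it went from -0.18 (without WT replicate 2) to -0.06 (without WT replicate 3). Its transcript has the lowest GC content of the 8 genes, 43.0%, and the GC correction moved it away from 0, unlike C1qb, C1qc and Cfp. It then stood at 366, 375 and 395 CPM in WT and 315, 309.8 and 293 CPM in KO, without overlap, with a log2 fold change of -0.31 (SE 0.07) and an adjusted p = 0.0618 in edgeR. With the correction in DESeq2 the adjusted p was 0.00387 for C3ar1 and 0.026 for C5ar1, and both folds stayed under 1.3. That fit covered 13425 genes, some without an adjusted p, and 1110 of them had one under 0.05. The ratio of C5ar1 to C3ar1 overlapped between the genotypes, at 0.816 to 1.05 in WT and 0.71 to 0.889 in KO, a log2 difference of -0.15 that became 0.03 after the correction, still with overlap.

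**Figure D3:**
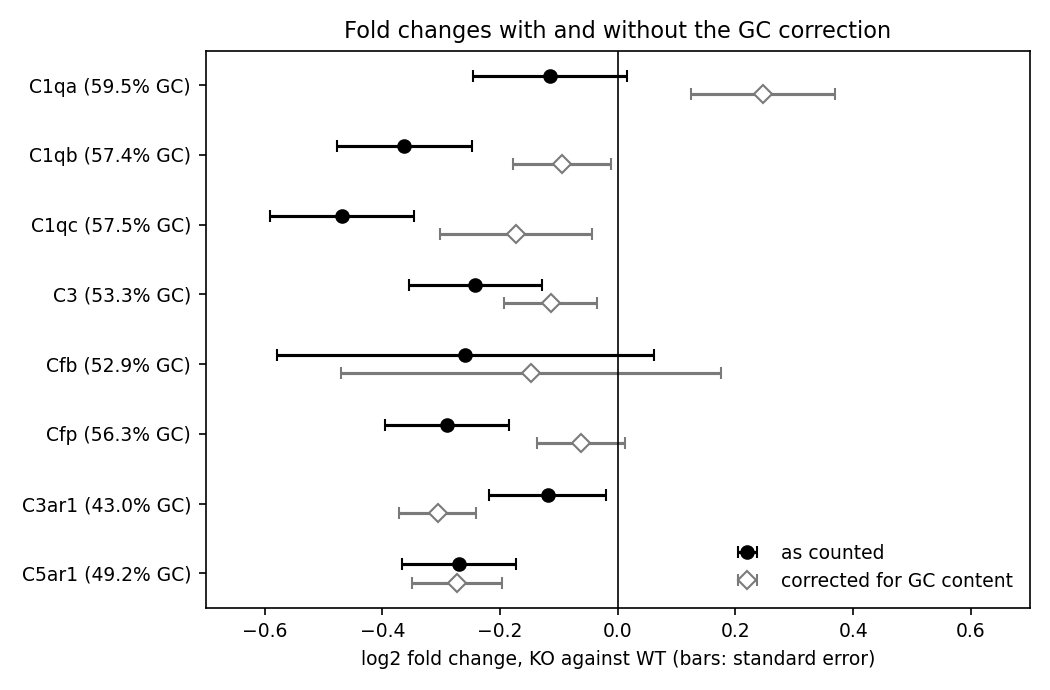
Log2 fold change (KO against WT) of each complement gene in edgeR as counted (filled circles) and after the GC correction (open diamonds), with bars for the SE (3 libraries per genotype) and the GC content of the longest transcript beside each name. The correction brings the C1q chains and Cfp up, turns C1qa from -0.11 to 0.25, takes C3ar1 down to -0.31 and leaves C5ar1 at -0.27.

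After the correction C3ar1 and C5ar1 were the 2 genes whose KO libraries all lay below the WT libraries, where 17.5% of all genes tested did so. The genes with non-overlapping libraries thus were C1qb, C1qc, Cfp and C5ar1 as counted and C3ar1 and C5ar1 after the correction, and C5ar1 was in both groups. Fold changes also ran with GC content in the pair of libraries examined within each genotype. The part of GC content in the values as counted was not tested beyond this correction.

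**Figure D4:**
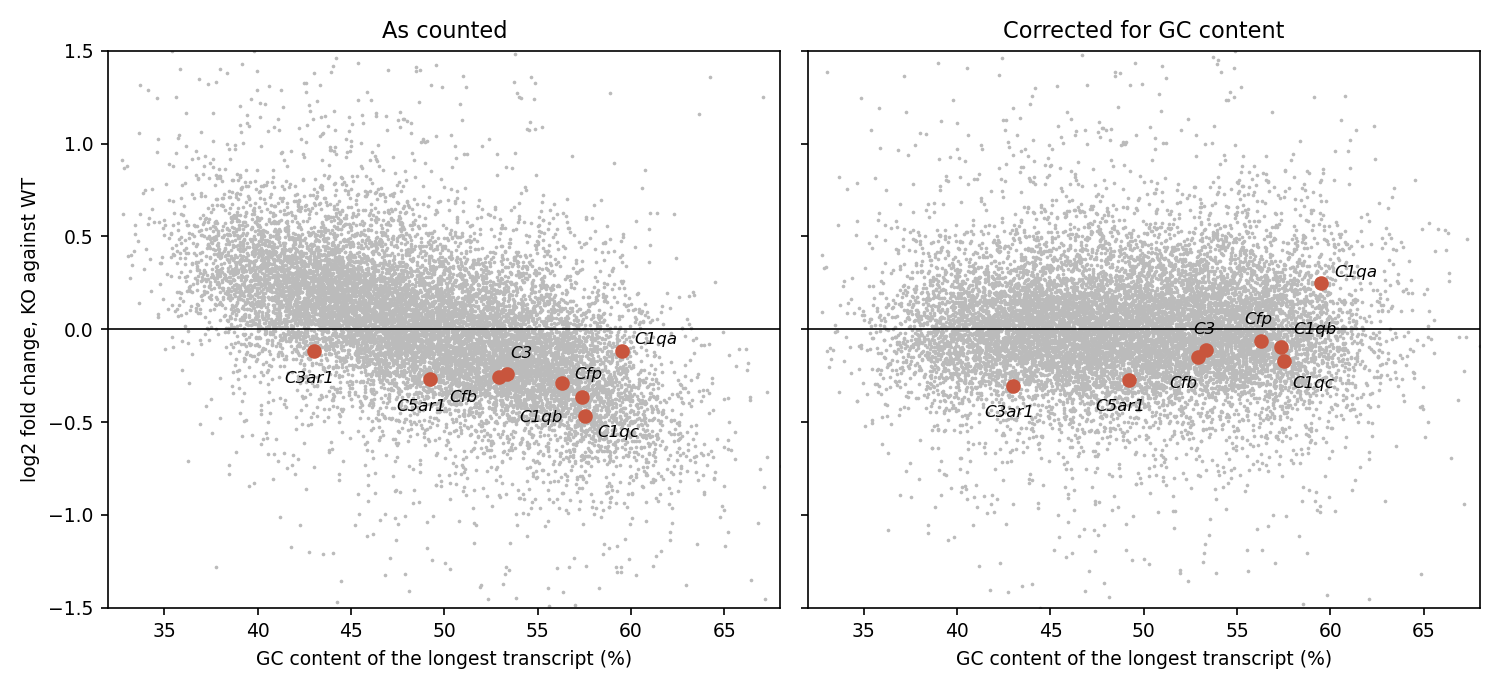
Log2 fold change (KO against WT) against the GC content of the longest transcript (percent) for 13176 genes (grey), as counted (left) and after the GC correction (right), with the 8 complement genes in red. As counted the genes run downward with GC content (r = -0.51), and 70 genes on the left and 63 on the right lie outside the axes.

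Among the 8 genes, levels can be compared only per length. Per kilobase of the median transcript, Cfp (452 CPM per kb, mean of 6 libraries) and C3 (374) stood highest, followed by C1qb (140.2), C5ar1 (117), C1qc (84.8), C3ar1 (79.2), C1qa (31.6) and Cfb (0.530). The ranges over the 6 libraries overlapped between Cfp and C3 and between neighbours from C1qb to C3ar1, and were apart from C3 to C1qb, from C3ar1 to C1qa and from C1qa to Cfb. The place of C3 rests on the length used, since 608 bases is the median of its 4 annotated transcripts and 5136 bases the longest. Per kilobase of the longest transcript C3 stood at 44.3 CPM per kb, between C1qc and C1qa, while Cfp stayed first at 282 and Cfb last at 0.324. Among the C1q chains, C1qa was the lowest per length in every library with either length, at 27.3 to 35.7 CPM per kb, against 111 to 175 for C1qb.

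Around these genes, 51 other complement genes were listed by their textbook roles, and 18 of them had enough counts to be tested. Of the 33 others, 15 were at 0 in every library, and the highest count of the remainder in any library was 14.04. None of the 7 terminal pathway genes (C6, C7, C8a, C8b, C8g, C9 and Hc, the gene for C5) was tested, nor was Cfd, the protease that activates factor B, which had at most 1 count in a library. Of the 7 genes for classical pathway proteases and their substrates only C1ra and C4a were tested. C2, which supplies the protease of the classical C3 convertase, had 2 to 13 counts, and C4b at most 2.

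Of the 18 other genes, 9 had a higher and 9 a lower estimate in KO, with a median log2 fold change of -0.02, and 0 passed the limits in edgeR. At an unadjusted p under 0.05, 4 were higher and 4 were lower, where 13% of all genes tested were higher and 13.2% lower at that p. The numbers higher and lower were 1 and 2 of 19 genes without WT replicate 1, and 5 and 4 of 18 without KO replicate 1. With every library kept, the genotypes did not overlap in 6 genes that were higher in KO, as in 16.9% of all genes tested, and in 4 that were lower, as in 18.8%. DESeq2 put 1 of them, Lrp1, past the limits, among 126 of the 24756 genes in its fit, some of which had no adjusted p.

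Membrane regulators, which protect a cell from its own complement, had higher estimates in KO in all 4 genes tested as counted, and 6848 of the 13428 genes tested did so too. After the GC correction 3 of the 4 were higher, and the libraries stayed apart in Cd59a alone. Cd59a, a blocker of the membrane attack complex, was at 7.63 ± 1.72 CPM in WT and 11.6 ± 0.636 CPM in KO (SD, n = 3), without overlap. Its log2 fold change was 0.60 (SE 0.17) with an adjusted p = 0.147 in edgeR, and 0.46 after the GC correction. Reads may be shared with its near copy Cd59b. Cr1l (Crry), which stops C3 convertases on mouse cells, was at 62.6 ± 6.33 and 79.0 ± 12.8 CPM, a log2 fold change of 0.34 that became -0.02 after the GC correction and, as counted, 0.20 without KO replicate 3. Cd46, a cofactor for the cleavage of C3b, was at 0.665 ± 0.057 and 1.10 ± 0.056 CPM, from only 11.65 to 21.62 counts in a library. Its log2 fold change was 0.73 (SE 0.28) with an adjusted p = 0.161 in edgeR and none given by DESeq2. After the GC correction the fold change was 0.42, with overlap. Cd55, which takes C3 convertases apart, was at 5.91 ± 1.08 and 6.89 ± 0.314 CPM, with overlap, a log2 fold change of 0.22 (adjusted p = 0.407 in edgeR) that became 0.05. As counted it was 0.10 without WT replicate 2 and 0.36 without WT replicate 3.

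The other receptors went both ways. Lrp1, a large endocytic receptor that takes up C1q-marked cells together with calreticulin, was at 2514, 3457 and 2691 CPM in WT and at 2077, 1413 and 968 CPM in KO. The KO libraries were spread widely below the WT libraries, and the log2 fold change was -0.96 (SE 0.25) with an adjusted p = 0.147 in edgeR and 0.00603 in DESeq2, or -0.70 after the GC correction. Calr, which encodes calreticulin, was at 1295 ± 56.5 and 1359 ± 86.0 CPM, with overlap, and C1qbp, a binder of the C1q heads, at 129 ± 4.96 and 147 ± 8.64 CPM.

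Itgam and Itgb2 encode the chains of complement receptor CR3, which binds cleaved C3 on particles. Itgam was at 915 ± 40.5 CPM in WT and 769 ± 30.9 CPM in KO, and Itgb2 at 1075 ± 89.4 and 868 ± 47.3 CPM (SD, n = 3). Neither overlapped between the genotypes, with log2 fold changes of -0.25 and -0.31 as counted and -0.26 and -0.19 after the GC correction. Itgax, whose product pairs with that of Itgb2 in CR4, was at 27.7 ± 0.525 and 33.4 ± 1.89 CPM, a log2 fold change of 0.27 (0.34 after the correction). Cd93, a receptor first linked to C1q and now known for the uptake of dying cells, was at 430 ± 16.5 and 351 ± 22.8 CPM, a log2 fold change of -0.29 (-0.36 after the correction). As counted, all of these had an adjusted p of at least 0.147 in edgeR, and in DESeq2 it was 0.0458 for Itgb2 and 0.0429 for Cd93. After the GC correction the adjusted p in edgeR was 0.0556 for Cd93, 0.0618 for Itgax, 0.0818 for Itgam and 0.139 for Itgb2. Fcna, a lectin pathway recognition protein of macrophages, was at 4.87 ± 0.14 and 6.11 ± 0.782 CPM. Its log2 fold change was 0.33 with an adjusted p = 0.212 in edgeR, and 0.53 after the correction with an adjusted p = 0.124.

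**Figure D5:**
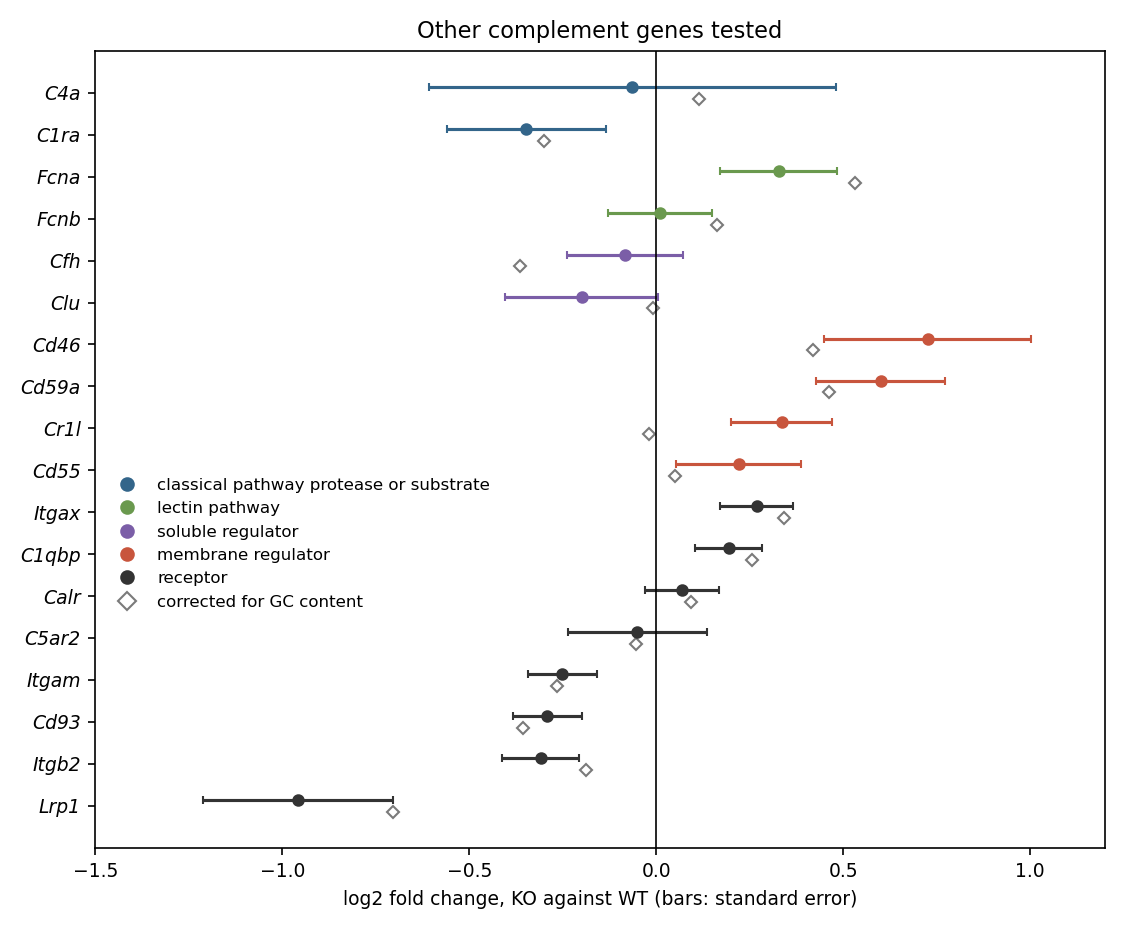
Log2 fold change (KO against WT) in edgeR of the 18 other complement genes tested, coloured by role, as counted (circles, bars for the SE, 3 libraries per genotype) and after the GC correction (open diamonds). The 4 membrane regulators lie above 0 as counted, with Cr1l at -0.02 after the correction, and Lrp1 is the lowest receptor at -0.96.

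Markers of other cell types were set beside these values, and their counts stand against 13% of all genes tested that were higher and 13.2% that were lower in KO at an unadjusted p under 0.05. The 9 osteoclast markers summed to 4838 to 5199 CPM in WT and 6576 to 6938 CPM in KO, and 6 of them were higher in KO at that p. Of the 8 macrophage markers, Adgre1, Mertk, Fcgr1 and Cd14 were lower in KO at that p, with log2 fold changes of -0.29, -0.57, -0.64 and -0.26, and none was higher. Neutrophil markers, 10 of 11 of which were detected in every library, summed to 1353 to 1530 CPM in WT and 1778 to 2149 CPM in KO, with 6 higher and 1 (Mpo) lower in KO at that p and Ly6g at 0 to 0.251 CPM. Markers of B cells (up to 9.20 CPM), T cells (up to 0.633), stromal cells (up to 20.8), dendritic cells (up to 11.3), mast cells and basophils (up to 16.6) and erythroid cells (up to 0.735) summed to little in every library, with 2 mast cell and basophil genes higher and 1 stromal gene lower in KO at that p. The part of the macrophage, osteoclast and neutrophil markers in the complement values was not tested.

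The genes whose pattern was most like the mean log2 level of the C1q chains over the 6 libraries were Cuedc1 (Pearson's r = 0.997), Ldb1 (0.995) and H2-T22 (0.991). With 6 libraries from 2 genotypes that share a GC trend, 83 genes had an r above 0.95, and the order is a description without a test. Cuedc1 was at 8.68, 12.2 and 9.97 CPM in WT and 7.08, 8.34 and 6.52 CPM in KO, with WT replicate 2 the highest library, as in all 3 C1q genes.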

How the data were processed

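RNA-seq libraries of 3 WT and 3 KO OCP cultures were analysed, grouped by the genotype in their labels. The authors deposited estimated counts per gene with no normalization, from a stranded mRNA kit. The submitters' processing notes name fastp, HISAT2, StringTie, RSEM and GRCm39 with no versions or roles, and whether reads were counted by strand is not given in the sources used here. Between 25.14% and 26.59% of detected values were not whole, so counts were rounded. The table's genotype means were not used.

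In R 4.3.3, genes were filtered with filterByExpr, scaled by TMM and compared with edgeR 4.0.16 (glmQLFit, legacy = FALSE, and glmQLFTest), with Benjamini-Hochberg adjustment over 13428 genes. CPM values are TMM-scaled. A gene passed with a fold change above 1.3 (0.379 on the log2 scale) and an adjusted p-value under 0.01. The GC correction modelled how each library deviates with the GC content of the longest transcript (natural spline, 5 degrees of freedom) and entered the fit as offsets, with 13176 genes having a value and the others left as they were. Alternatives were DESeq2 1.42.0, limma-voom (limma 3.58.1), other scalings, filters and limits, a replicate block and each library left out.

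Positions and lengths come from GENCODE M21 on GRCm38, a different build from that in the notes, and were matched by gene identifier. The 8 genes, the other complement genes and the marker lists were chosen with earlier results of these data known. Named besides the 8 genes were other complement genes with an unadjusted p under 0.05, with non-overlapping libraries or among the 5 highest per length, and the 3 genes most like the C1q chains, compared as log2(CPM + 0.5). Other genes in lists of counts were named after their values were seen. No 2 libraries were within sampling noise of each other, where chi-square per degree of freedom was at least 3.77.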

Additional observations from a re-analysis of the deposited data

How the results depend on the processing

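Of 135 log2 fold changes of the 8 complement genes under other settings, 132 kept their direction and their side of the limits. The 3 that reversed are C1qa with the GC correction (0.25 in edgeR, 0.25 with DESeq2 and 0.24 with the replicate block). No complement gene of the 8 passed the limits in any setting. Cfb has no value with at least 10 counts in every library, and DESeq2 gave it no adjusted p. Of the 8, those lower at an unadjusted p under 0.05 numbered 4 as reported (13.2% of all genes), 2 without WT replicate 2 (5.6%), and 5 without KO replicate 1 (16.7%). Of the other complement genes, 4 were higher and 4 lower at that p as reported, and 2 and 3 with the replicate block. Without WT replicate 1 it was 1 higher and 2 lower (10.5%, against 10.9% of all genes lower). The number of genes past the limits was 1 and became 126 with DESeq2, 3 with the GC correction, 339 with the GC correction in DESeq2, and 0 to 2 with 1 library left out (0 without WT replicate 2, WT replicate 3 or KO replicate 2, and 2 without KO replicate 1). Of the other complement genes 0 passed, and 1 did with DESeq2 and with the GC correction in DESeq2. The cause was not tested. Per kilobase of the longest transcript, C3 was at 44.3, Cfp at 282 and Cfb at 0.324 CPM per kb, which follows from the longer lengths. Same-numbered WT and KO libraries had deviations correlated at -0.215, 0.077 and 0.166, so the numbers were not taken to pair the samples, and with the replicate block 1 gene passed the limits, with C1qc at -0.46 and C1qb at -0.36. Depth limits Cfb, at 9 to 20 counts, Cd46, at 11.65 to 21.62, C4a, at 4 to 17.01, and the 33 untested complement genes.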
